A study of Mus musculus with 9 samples.

Results

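The retinal mural cell genes examined here are 10 genes of pericytes and vascular smooth muscle, out of 54532 genes in the deposited count table: Pdgfb, Pdgfrb, Rgs5, Cspg4, Kcnj8, Abcc9, Acta2, Tagln, Myh11, and Notch3. They were chosen by symbol, each matched 1 row of the table, and all 10 passed the filter on low counts that left 17540 genes for testing. Bulk RNA-Seq was performed on the retina of 9 wild-type C57BL/6 mice at P17. Control mice were raised in room air and carry DMSO, the vehicle, in their labels. In oxygen-induced retinopathy (OIR), newborn mice are kept in high oxygen and returned to room air at P12, after which the poorly perfused retina grows abnormal vessels. OIR mice received DMSO, and OIR+32-134D mice received 32-134D, a small molecule that inhibits HIF-1 and HIF-2, the transcription factors of the hypoxic response, in 1 injection into the eye at P12 (70 ng/μl in the protocol, 70 ng in the treatment label). There were 3 mice per group, named here by their label numbers. The controls are mice 1, 6, and 7, the OIR group holds mice 3, 5, and 6, and the OIR+32-134D group holds mice 2, 5, and 10. Values by mouse follow this order throughout.

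Pericytes sit on the outside of capillaries within the basement membrane, and smooth muscle cells ring the arterioles. Sprouting endothelial cells secrete PDGF-B, the product of Pdgfb, and pericytes are recruited along the new vessel through its receptor PDGFR-β, the product of Pdgfrb. The retina is among the tissues with the densest pericyte coverage, and pericyte loss is an early feature of diabetic retinopathy.

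Control libraries held 16864135 to 27213184 counts, OIR libraries 18556723 to 21071371, and OIR+32-134D libraries 16028731 to 18560178. Retinal identity was seen in every mouse, with 8 retina genes summing to between 35515 and 65705 CPM (counts divided by library size and set on a common scale). OIR+32-134D mouse 2 stood apart, with 15.78% of its counts in crystallin genes, the genes of lens proteins, against 0.008711% to 0.1862% in the other 8 mice. The biological coefficient of variation, the spread between mice of a group, was 0.257 in control, 0.232 in OIR, and 0.362 in OIR+32-134D mice. Some results are given below with and without mouse 2, and the other values may also change without it.

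Of the 10 mural cell genes, 0 passed the test in any of the 3 comparisons, in either direction (edgeR quasi-likelihood test, adjusted p below 0.05 over all 17540 genes). Among all genes tested, the same test called 0.941% between OIR and control mice, 0.0228% between OIR+32-134D and control mice, and 0% between OIR+32-134D and OIR mice. With so few genes called, 0 of 10 lies near the background in each comparison. At an unadjusted p below 0.05, the counts were 0, 1, and 0 of 10, beside 23.8%, 18.6%, and 4.69% of all genes. Groups did not overlap for 0, 1, and 0 of 10, beside 33%, 25%, and 9.13% of all genes, either direction counted. With all 9 mice in the edgeR fit, the share of mural cell genes called, or not overlapping, was above the background in no comparison. Without OIR+32-134D mouse 2, 4 of 10 had an unadjusted p below 0.05 for OIR+32-134D against control, beside 14.2% of all genes, and 4 of 10 for OIR+32-134D against OIR, beside 13%. With limma voom and sample weights, these were 5 of 10 beside 26.3% and 4 of 10 beside 13.9%. With any other single mouse left out of the edgeR fit, the counts were lower. They were 0 to 3 of 10 against control, beside 12.8% to 19.8%, and 0 to 2 of 10 against OIR, beside 2.38% to 5.56%. Without OIR+32-134D mouse 5 or mouse 10, they were 0 of 10 in both comparisons. In whole retina, fewer cells of a type and less RNA per cell cannot be told apart.

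The fold changes of the members lay on both sides of 0 in OIR mice, and most were above 0 in OIR+32-134D mice. The median log2 fold change over the 10 genes was 0.16 for OIR against control (0.03 over all genes tested), with 6 values above 0 and 4 below. It was 0.35 for OIR+32-134D against control (0.01 over all genes) and 0.50 for OIR+32-134D against OIR (0.01 over all genes), with 8 values above 0 and 2 below in each. Of all genes tested, 53.5%, 51.4%, and 51.3% were above 0 in the same order. These last 2 comparisons share the OIR+32-134D mice, and the 2 comparisons with control share the control mice, so they are not independent of one another. Several members moved together across mice, as given below, so their signs are not independent either. Endothelial genes had values of the same kind, with medians of 0.33 for OIR+32-134D against control (12 of 12 above 0) and 0.53 for OIR+32-134D against OIR (10 of 12 above 0). The lists' direction, and the part of endothelial content in it, were not tested.

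**Figure D1:**
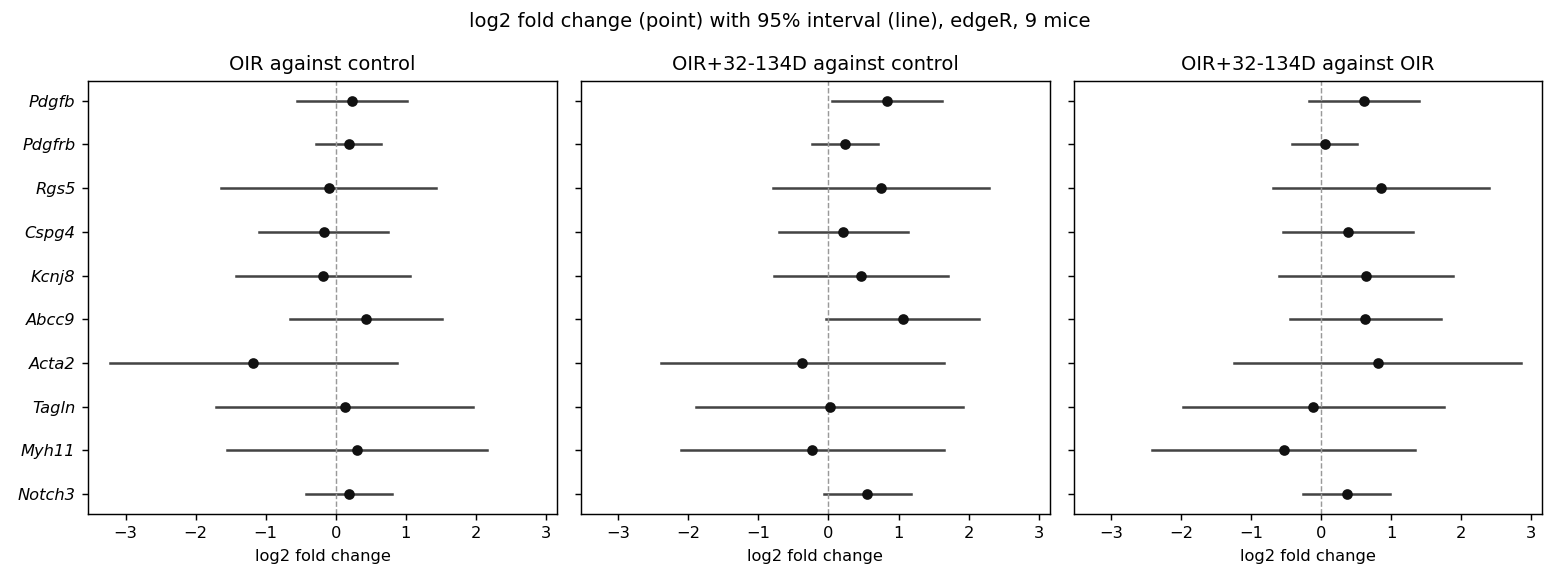
Log2 fold change (x axis) of each of the 10 mural cell genes (y axis) in the 3 comparisons, from edgeR's fit of all 9 mice, with points for the estimates and lines for 95% intervals. The intervals include 0 for every gene and comparison other than Pdgfb in OIR+32-134D against control (0.04 to 1.62).

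Promoter sequence is shown for 4 genes whose patterns across mice are set against one another below, the pericyte genes Rgs5, Kcnj8, and Abcc9, which moved together, and Acta2, which did not move with them. Each is the 250 bases before the RefSeq start site on GRCm38.p6, written 5′ to 3′ on the gene's own strand, for Rgs5 chr1:169655251-169655500 (plus), for Kcnj8 chr6:142571615-142571864 (minus), for Abcc9 chr6:142702275-142702524 (minus), and for Acta2 chr19:34255374-34255623 (minus). The RefSeq start of Abcc9 lies inside the gene as the count table bounds it, and that of Acta2 lies just outside. Capitals mark matches to the searched motifs.
Rgs5: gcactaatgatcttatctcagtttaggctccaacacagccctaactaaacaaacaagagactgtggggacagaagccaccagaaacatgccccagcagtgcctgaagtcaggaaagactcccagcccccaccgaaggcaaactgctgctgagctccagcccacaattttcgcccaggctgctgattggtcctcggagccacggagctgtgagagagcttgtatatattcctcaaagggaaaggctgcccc
Kcnj8: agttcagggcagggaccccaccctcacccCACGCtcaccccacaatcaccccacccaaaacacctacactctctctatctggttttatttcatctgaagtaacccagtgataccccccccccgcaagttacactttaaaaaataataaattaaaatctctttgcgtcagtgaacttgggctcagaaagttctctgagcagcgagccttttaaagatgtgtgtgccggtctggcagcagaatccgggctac
Abcc9: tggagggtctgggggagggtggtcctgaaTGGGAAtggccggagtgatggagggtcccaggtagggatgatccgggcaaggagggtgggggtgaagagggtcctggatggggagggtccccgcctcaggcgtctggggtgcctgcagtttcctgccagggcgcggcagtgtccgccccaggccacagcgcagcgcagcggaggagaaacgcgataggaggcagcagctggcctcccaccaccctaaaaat
Acta2: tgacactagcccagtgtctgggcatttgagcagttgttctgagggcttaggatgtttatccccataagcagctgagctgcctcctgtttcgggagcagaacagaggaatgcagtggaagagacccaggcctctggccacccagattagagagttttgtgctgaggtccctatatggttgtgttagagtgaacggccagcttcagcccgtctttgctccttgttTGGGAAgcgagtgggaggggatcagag

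Of the 10 genes, 6 had a promoter in the RefSeq table, which are these 4 with Cspg4 and Notch3. Searched on both strands were the CArG box of serum response factor, the core TGGGAA of RBPJ (the DNA-binding partner of Notch), the hypoxia response core ACGTG or GCGTG, and the TATA core TATAAA. A CArG box was in 1.47% of 32817 promoters of the same length, the RBPJ core in 21.6%, the hypoxia response core in 38.6%, and TATAAA in 12.4%. The capitals in Kcnj8 are a hypoxia response core read on the other strand, at -221 to -217 from the start. Those in Abcc9 and Acta2 are RBPJ cores at -221 to -216 and -27 to -22. The CArG box was searched only as CC, 6 bases of A or T, and GG, so forms with a C or G inside were not marked. Acta2 holds such forms at ccctatatgg and ccttgttTGG, the latter overlapping its RBPJ core. Notch3 held 2 adjoining hypoxia response cores, at -186 to -182 and -181 to -177, and Rgs5 and Cspg4 held none of these motifs. These are matches of letters, not sites of binding.

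Pdgfb (ENSMUSG00000000489, chr15:79995874-80014977, minus strand, GRCm38) encodes the ligand chain PDGF-B, made mostly by endothelial cells. Its log2 CPM was 3.92, 3.42, and 3.33 in control, 4.33, 3.79, and 3.02 in OIR, and 3.81, 4.65, and 4.62 in OIR+32-134D mice. OIR+32-134D mice 5 and 10 were above every other mouse, whereas mouse 2 lay within the control range, so the groups overlapped. The log2 fold change of OIR+32-134D against control was 0.83 (95% interval 0.04 to 1.62, edgeR adjusted p = 0.2503). It had the only unadjusted p below 0.05 among the 10 genes, and it did not pass the test. Against control, OIR mice had a log2 fold change of 0.23 (95% interval -0.56 to 1.01). Between OIR+32-134D and OIR mice the value was 0.61 (95% interval -0.18 to 1.39), and without OIR+32-134D mouse 2 it was 0.86 (edgeR adjusted p = 0.3142). The gene spans a miRNA, Mir7213, and an antisense gene, Gm41361, which share 0 bases with its exons in GENCODE M21.

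Pdgfrb (ENSMUSG00000024620, chromosome 18, plus strand) encodes PDGFR-β, the receptor that defines pericytes in most work on them. It was the steadiest of the 10 genes, with the highest mouse at 1.68 times the CPM of the lowest over all 9 mice. Its log2 CPM was 5.19, 4.76, and 4.55 in control, 5.21, 4.999, and 4.90 in OIR, and 4.68, 5.22, and 5.30 in OIR+32-134D mice. The 3 groups overlapped throughout. Log2 fold changes were 0.18 (95% interval -0.28 to 0.65) for OIR against control, 0.24 (-0.23 to 0.70) for OIR+32-134D against control, and 0.05 (-0.41 to 0.52) for OIR+32-134D against OIR. These are the narrowest intervals of the set, so a change in Pdgfrb of 1 log2 unit lies outside all 3.

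Set against its receptor within each mouse, the ligand was lower throughout. The log2 CPM of Pdgfb minus that of Pdgfrb was -1.27, -1.34, and -1.23 in control, -0.88, -1.21, and -1.88 in OIR, and -0.88, -0.57, and -0.69 in OIR+32-134D mice. The control mice lay close together, the OIR mice lay on both sides of them, and the 3 OIR+32-134D mice lay above the controls, with mouse 2 at nearly the same difference as OIR mouse 3. This pair was set side by side after its values were seen, and the difference was not tested.

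Rgs5 (ENSMUSG00000026678, chr1:169655501-169695813, plus strand) encodes a regulator of G-protein signaling and is among the most abundant transcripts of pericytes. Its log2 CPM was 6.84, 6.997, and 7.13 in control, 7.68, 6.82, and 5.26 in OIR, and 5.56, 8.10, and 8.33 in OIR+32-134D mice. Control mice were nearly alike, with the highest at 1.22 times the CPM of the lowest. In OIR mice that ratio was 5.34 and in OIR+32-134D mice 6.82, since OIR mouse 6 and OIR+32-134D mouse 2 were far below all controls while OIR mouse 3 and OIR+32-134D mice 5 and 10 were above them. The group means therefore hide opposite deviations, and the log2 fold changes were -0.10 (95% interval -1.64 to 1.43) for OIR against control, 0.75 (-0.79 to 2.29) for OIR+32-134D against control, and 0.85 (-0.69 to 2.40) for OIR+32-134D against OIR. Without OIR+32-134D mouse 2, the last became 1.35 (edgeR adjusted p = 0.2882).

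**Figure D2:**
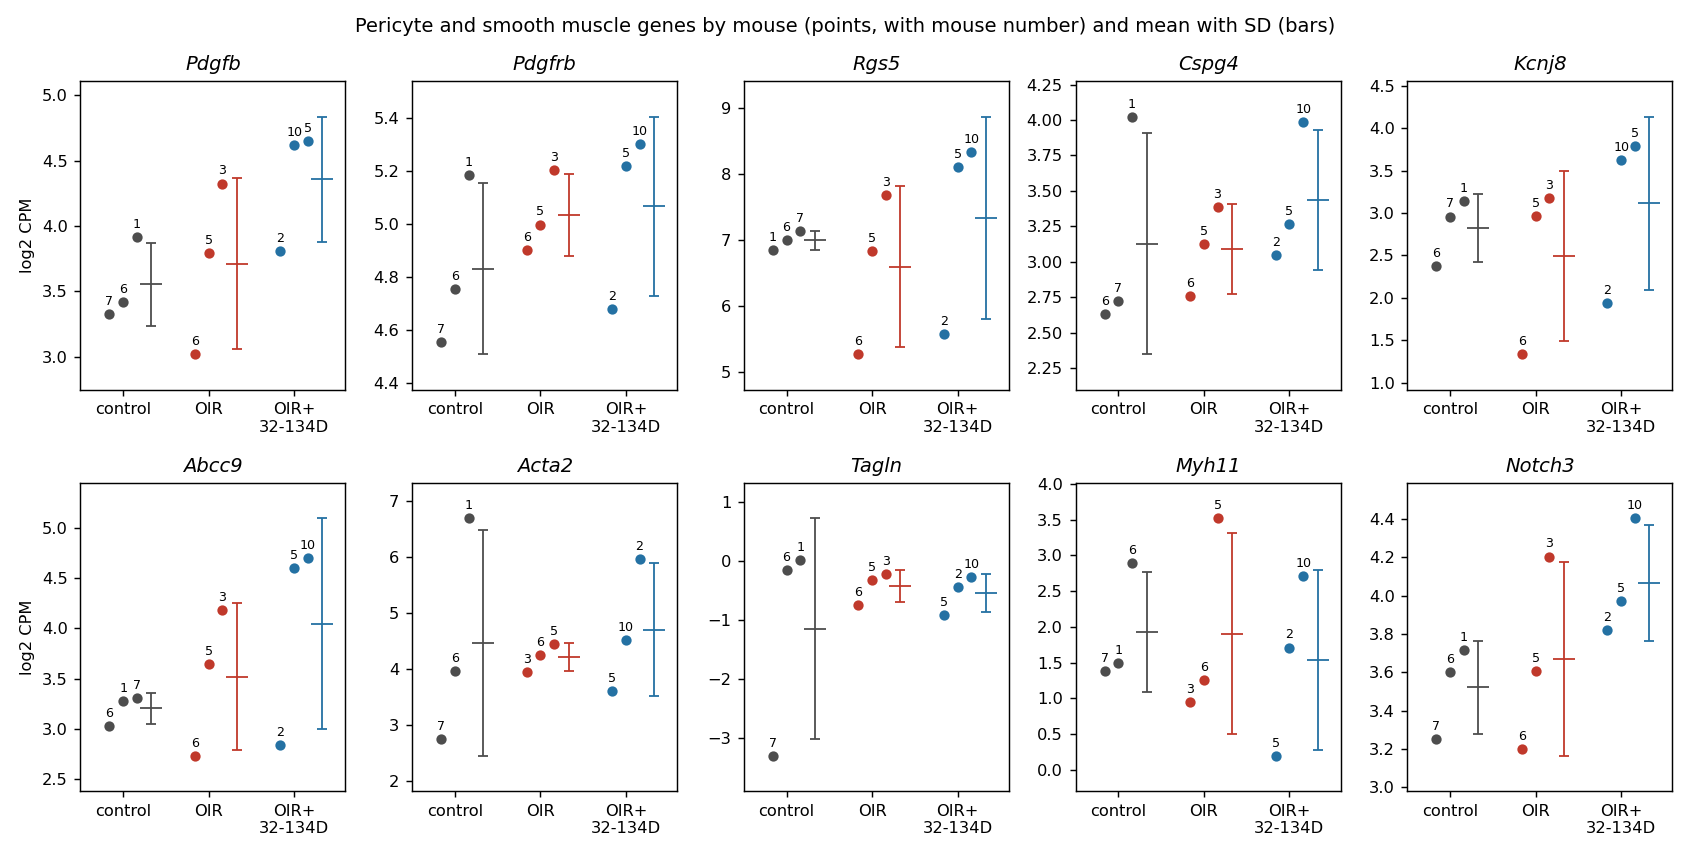
Log2 CPM (y axis, scaled separately for each gene) of the 10 mural cell genes in each mouse, with points numbered by mouse and, beside them, the mean of the group with its SD (n = 3). Rgs5, Kcnj8, and Abcc9 are low in OIR mouse 6 and OIR+32-134D mouse 2 and high in OIR mouse 3 and OIR+32-134D mice 5 and 10, whereas Acta2 is highest in control mouse 1 and OIR+32-134D mouse 2.

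Kcnj8 (ENSMUSG00000030247, chr6:142564837-142571614) and Abcc9 (ENSMUSG00000030249, chr6:142587862-142702315) encode Kir6.1 and SUR2, the pore and the regulatory subunit of the ATP-sensitive potassium channel of mural cells. They are neighbors on the minus strand of chromosome 6, with 16247 bases between them. Kcnj8 had a log2 CPM of 3.14, 2.38, and 2.96 in control, 3.17, 2.96, and 1.34 in OIR, and 1.94, 3.78, and 3.62 in OIR+32-134D mice. For Abcc9 the values were 3.28, 3.02, and 3.31 in control, 4.19, 3.64, and 2.73 in OIR, and 2.84, 4.60, and 4.71 in OIR+32-134D mice. Both had the pattern of Rgs5, with OIR mouse 6 and OIR+32-134D mouse 2 lowest and OIR+32-134D mice 5 and 10 highest, and their groups overlapped in every comparison.

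The log2 fold changes of Kcnj8 were -0.18 (95% interval -1.42 to 1.06) for OIR against control, 0.46 (-0.78 to 1.70) for OIR+32-134D against control, and 0.64 (-0.60 to 1.88) for OIR+32-134D against OIR. Those of Abcc9 were 0.43 (-0.66 to 1.52), 1.06 (-0.03 to 2.16), and 0.63 (-0.45 to 1.71) in the same order. The value of Abcc9 for OIR+32-134D against control was the largest upward estimate of the 10 genes in any comparison and did not pass (edgeR adjusted p = 0.2779). Without OIR+32-134D mouse 2 it was 1.46 (edgeR adjusted p = 0.1457). A 158-base stretch, 1.89% of the exons of Abcc9, is shared with the antisense gene 5330439B14Rik.

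Although the channel genes moved together, they did not move equally. The log2 CPM of Abcc9 minus that of Kcnj8 was 0.14, 0.64, and 0.35 in control, 1.01, 0.68, and 1.39 in OIR, and 0.89, 0.82, and 1.09 in OIR+32-134D mice. All 6 mice of the OIR model were above all 3 controls in this difference, which was chosen after seeing the values and not tested. Per length, Kcnj8 was nevertheless the higher of the channel genes in all 9 mice, at between 0.953 and 5.37 CPM per kb, against 0.779 to 3.11 for Abcc9.

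Cspg4 (ENSMUSG00000032911, chr9:56865033-56899870, plus strand) encodes the NG2 proteoglycan, found on mural cells and on oligodendrocyte precursors. Its log2 CPM was 4.02, 2.63, and 2.73 in control, 3.39, 3.13, and 2.76 in OIR, and 3.05, 3.26, and 3.99 in OIR+32-134D mice. Control mouse 1 and OIR+32-134D mouse 10 were highest, and the groups overlapped. The log2 fold changes were -0.17 (95% interval -1.10 to 0.75), 0.21 (-0.71 to 1.14), and 0.39 (-0.54 to 1.31) for OIR against control, OIR+32-134D against control, and OIR+32-134D against OIR.

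Notch3 (ENSMUSG00000038146, chr17:32120820-32166880, minus strand) encodes the Notch receptor of mural cells, which keeps arterial smooth muscle mature. Its log2 CPM was 3.71, 3.60, and 3.25 in control, 4.20, 3.61, and 3.20 in OIR, and 3.82, 3.97, and 4.40 in OIR+32-134D mice. Every OIR+32-134D mouse was above every control mouse, the 1 case of groups that did not overlap among the 10 genes. That comparison had a log2 fold change of 0.55 (95% interval -0.06 to 1.17, edgeR adjusted p = 0.3091) and did not pass. The values were 0.19 (-0.43 to 0.81) for OIR against control and 0.36 (-0.26 to 0.98) for OIR+32-134D against OIR. The antisense gene Gm17276 shares 488 bases, 6.03% of its exons.

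Acta2 (ENSMUSG00000035783, chr19:34241090-34255336, minus strand) encodes smooth muscle α-actin, the contractile actin of arteriolar smooth muscle, which myofibroblasts also make. It varied most between mice of 1 group. Its counts were 2966, 314, and 102 in control, 285, 464, and 422 in OIR, and 990, 197, and 445 in OIR+32-134D mice. On the log2 CPM scale these were 6.70, 3.97, and 2.74 in control, 3.94, 4.44, and 4.25 in OIR, and 5.98, 3.61, and 4.52 in OIR+32-134D mice. The control group alone covered the range of all 9 mice, a 15.8-fold ratio of highest to lowest CPM, against 1.42-fold in OIR and 5.2-fold in OIR+32-134D mice.

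For Acta2, the largest estimate of either direction among the 10 genes was set by 1 library. The log2 fold change was -1.18 (95% interval -3.23 to 0.88, edgeR adjusted p = 0.4654) for OIR against control and -0.37 (-2.40 to 1.65) for OIR+32-134D against control. Without control mouse 1 these became 0.74 (edgeR adjusted p = 0.5216) and 1.55 (edgeR adjusted p = 0.3091), of the opposite sign. Against the sign of the fitted value, the mean log2 CPM was 4.70 ± 1.19 (SD, n = 3) in OIR+32-134D and 4.47 ± 2.03 (SD, n = 3) in control mice. Between OIR+32-134D and OIR mice the log2 fold change was 0.81 (-1.24 to 2.86), and without OIR+32-134D mouse 2 it was -0.06. Actin genes are closely alike in sequence, so reads could be split between Acta2 and its paralogs, and these counts are uncertain to that extent.

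Tagln (ENSMUSG00000032085, chr9:45929619-45936058, minus strand) encodes transgelin, an actin-binding protein of smooth muscle, and was near the limit of detection. Counts were 26, 16, and 0 in control, 14, 15, and 11 in OIR, and 10, 7, and 14 in OIR+32-134D mice. The 0 counts of control mouse 7 allow a level of up to 0.193 CPM, the level of 3 counts in that library, and cover counting error only. The log2 fold changes were 0.13 (95% interval -1.71 to 1.96), 0.02 (-1.89 to 1.92), and -0.11 (-1.98 to 1.75) in the order used for Cspg4, and a difference was not detectable at this depth. The antisense gene Gm48529 shares 62.4% of the exon bases of Tagln and the gene Pcsk7 shares 5.43%, so the counts are uncertain if counting ignored strand.

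Myh11 (ENSMUSG00000018830, chr16:14194535-14291372, minus strand) encodes the heavy chain of smooth muscle myosin, the most specific marker of mature smooth muscle in the set. Its log2 CPM was 1.498, 2.89, and 1.39 in control, 0.94, 3.52, and 1.26 in OIR, and 1.71, 0.19, and 2.71 in OIR+32-134D mice. Each group had 1 mouse above its other mice, control mouse 6, OIR mouse 5, and OIR+32-134D mouse 10, so the groups overlapped. The fitted log2 fold changes were 0.30 (95% interval -1.56 to 2.16), -0.23 (-2.11 to 1.65), and -0.54 (-2.41 to 1.34) in the same order. Each of them changed sign when a single mouse was left out, and OIR mice, at a mean log2 CPM of 1.91 ± 1.41 (SD, n = 3), were beside the controls at 1.93 ± 0.84 (SD, n = 3).

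Levels of the 10 genes were compared per length, as CPM divided by the gene length in kb that the count table gives. By control mean, Rgs5 was first, at 25.2 to 30.8 CPM per kb, followed by Acta2, at 3.69 to 58.2, and Pdgfrb, at 4.27 to 6.63. Pdgfb (2.39 to 3.61) and Kcnj8 (2.003 to 3.43) came next and did not differ beyond their spread. Notch3 (1.17 to 1.62), Abcc9 (0.958 to 1.17), Cspg4 (0.511 to 1.36), and Myh11 (0.331 to 0.965) followed, each overlapping its neighbor in the order. Tagln was last, at 0 to 0.457. Neighbors were separated in 2 places, between Pdgfrb and Pdgfb and between Kcnj8 and Notch3. Acta2 overlapped both Rgs5 and Pdgfrb because of its own spread.

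**Figure D3:**
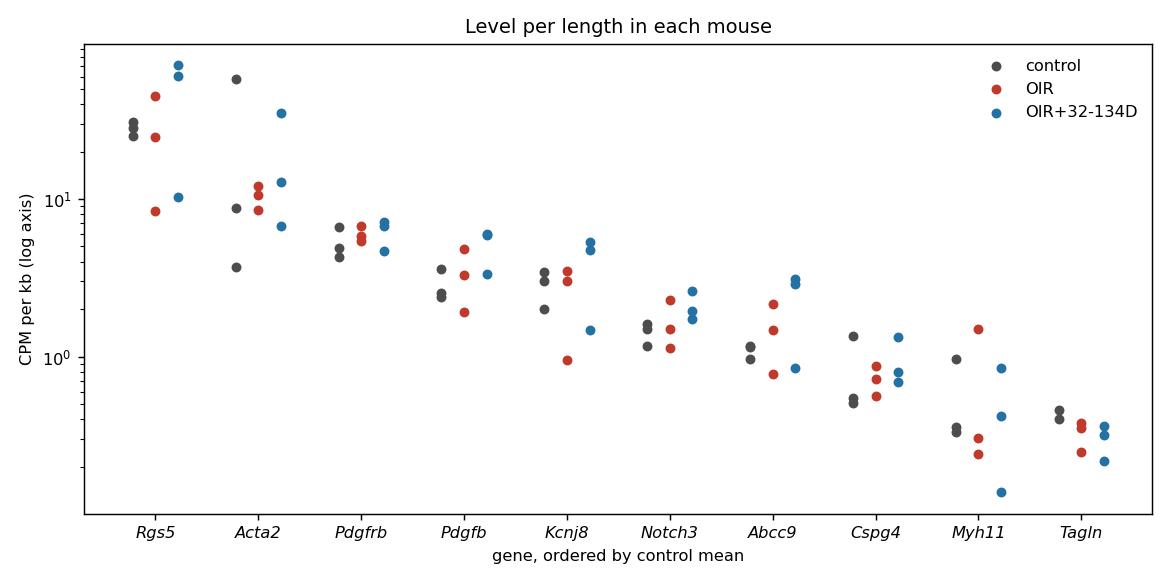
Level per length (CPM per kb, log y axis) of each gene in each mouse, with points colored by group and genes ordered by their control mean. Rgs5 has the highest control mean (28.0), although Acta2 is above it in control mouse 1 (58.2 against 25.2), Tagln has the lowest, and the 0 counts of Tagln in control mouse 7 cannot be drawn on a log axis.

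Across the 9 mice, members moved with Rgs5 to differing degrees. Pearson's r of log2 CPM was computed for all 45 pairs, with two-sided exact permutation p over the orders of the mice and Benjamini-Hochberg adjustment over the 45. The 9 mice belong to 3 groups, so r of the deviations from group means is given as well. For Rgs5 and Kcnj8, r was 0.937 (exact permutation p = 0.000265, adjusted 0.0119), Spearman's coefficient was 0.85 (exact permutation p = 0.006074, adjusted 0.05466), and r of the deviations was 0.9305. For Rgs5 and Abcc9, r was 0.905 (exact permutation, adjusted p = 0.0131), Spearman's coefficient was 0.883 (adjusted 0.0346), and r of the deviations was 0.988. The deviations pool the 3 groups, so they do not show a relation within each group. Among the controls, mouse 1 was lowest in Rgs5 (6.84) and highest in Kcnj8 (3.14).

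The channel pair Kcnj8 and Abcc9 had an r of 0.878 (exact permutation, adjusted p = 0.0181) and a Spearman coefficient of 0.933 (adjusted 0.0169). Without the 2 mice farthest from the median, r was 0.790 for Rgs5 with Kcnj8, 0.927 for Rgs5 with Abcc9, and 0.887 for the channel pair, each without OIR mouse 6 and OIR+32-134D mouse 2. Pdgfb moved with Notch3, at an r of 0.918 (exact permutation, adjusted p = 0.0131), a Spearman coefficient of 0.933 (adjusted 0.0169), and an r of 0.940 without OIR+32-134D mice 5 and 10. With Abcc9, Pdgfb had an r of 0.901 (exact permutation, adjusted p = 0.0171), a Spearman coefficient of 0.767 (adjusted 0.0875), and an r of 0.757 without those 2 mice. By deviations from group means, r was 0.9551 for Kcnj8 with Abcc9, 0.8683 for Pdgfb with Notch3, and 0.8851 for Pdgfb with Abcc9. These 5 of 45 pairs had an adjusted p below 0.05 for r, and the share among pairs of other genes was not computed. None of the 5 included a contractile gene, and Rgs5 with Acta2 had the lowest r of all pairs, -0.3625, which did not pass (exact permutation, adjusted p = 0.5666).

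Rgs5, Kcnj8, Abcc9, and Pdgfb also moved with endothelial genes. A list of 12 endothelial genes, among them Pecam1 and Cdh5, had a mean log2 CPM of 4.21, 4.28, and 4.33 in control, 4.88, 4.40, and 3.58 in OIR, and 3.84, 5.08, and 5.07 in OIR+32-134D mice. Summed, the controls had 356 to 388 CPM, the OIR mice 493 to 630, and the OIR+32-134D mice 413 to 598, and 0 of its 12 genes were at 0 counts in any mouse. In OIR mouse 6, which had the lowest list mean, most of the 493 CPM came from Kdr (280.6) and Flt1 (114.6). Both genes were higher there than in any other mouse, so the sums and the means rank the mice differently. Against 5 lists, 50 relations with members were computed, and 8 had an adjusted p below 0.05 for r. The share among other genes was not computed. The endothelial mean had an r of 0.9745 with Rgs5 (exact permutation p = 6.614e-05, adjusted 0.001653), a Spearman coefficient of 0.883 (adjusted 0.0256), an r of 0.9546 without OIR mouse 6 and OIR+32-134D mouse 5, and an r of 0.9953 of the deviations from group means. With Abcc9, r was 0.9625, with Kcnj8 0.9242, and with Pdgfb 0.8644 (exact permutation, adjusted p = 0.0008267, 0.003904, and 0.02518). Notch3, which moved with Pdgfb, had an r of 0.7618 with the endothelial mean and did not pass (exact permutation, adjusted p = 0.06504). The other 4 of the 8 were the same members with a list of 10 other pericyte genes, at an r of 0.947 for Rgs5, 0.9227 for Kcnj8, 0.929 for Abcc9, and 0.865 for Pdgfb. The mean of 8 retina genes had an r of 0.6471 with Rgs5, 0.52 with Kcnj8, 0.4012 with Abcc9, and 0.05912 with Pdgfb. None of these passed (exact permutation, adjusted p = 0.1459, 0.3186, 0.4667, and 0.9098). By deviations from group means, r with the retina genes was 0.8446, 0.7089, 0.8254, and 0.5075 in the same order.

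Rgs5 also varied relative to a single endothelial gene. Log2 CPM of Rgs5 minus that of Pecam1, the gene of the endothelial adhesion molecule CD31, was 2.63, 2.85, and 2.62 in control, 2.57, 2.32, and 1.28 in OIR, and 0.98, 2.48, and 2.996 in OIR+32-134D mice. OIR mouse 6 and OIR+32-134D mouse 2 were again the lowest, while the other 7 mice were between 2.32 and 2.996. The part of endothelial or crystallin content in these deviations was not tested.

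**Figure D4:**
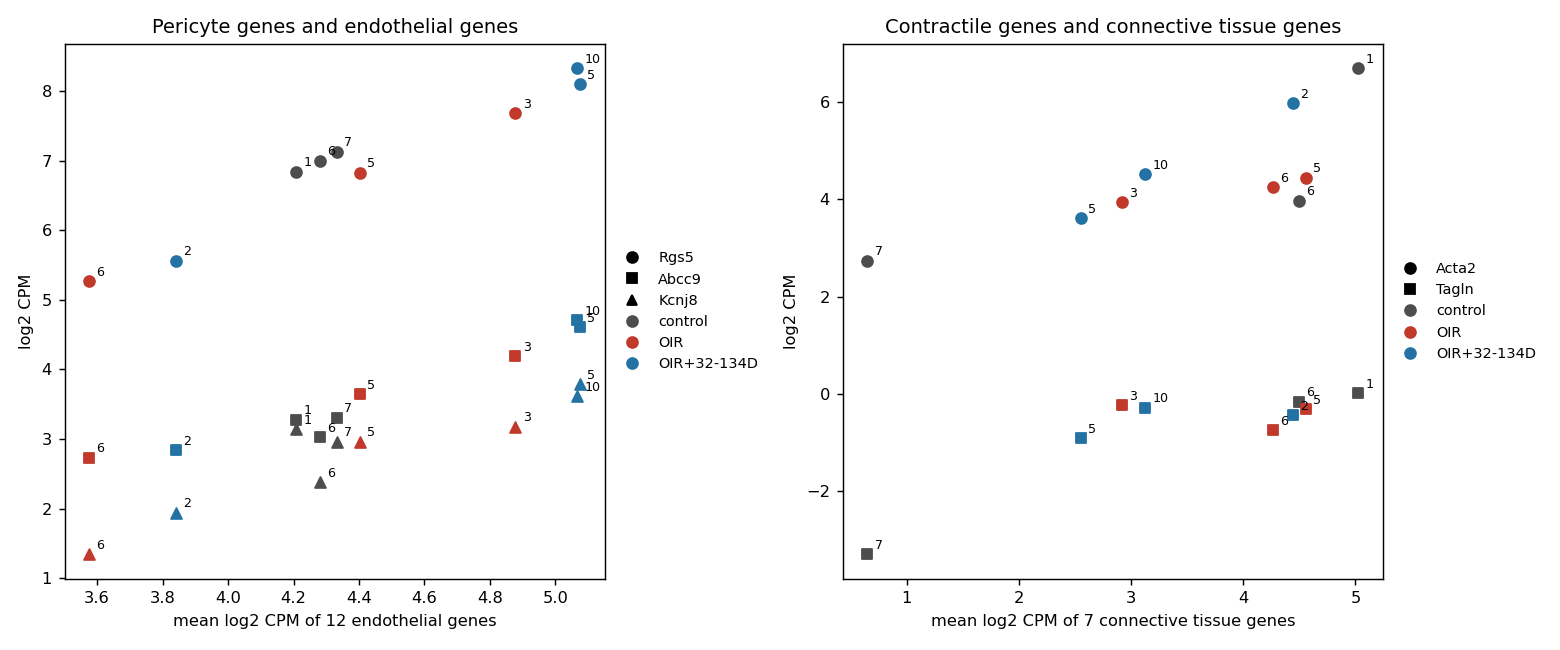
Left, log2 CPM of Rgs5, Abcc9, and Kcnj8 (y axis) against the mean log2 CPM of 12 endothelial genes (x axis), and right, log2 CPM of Acta2 and Tagln against the mean log2 CPM of 7 connective tissue genes, in each of the 9 mice, with points numbered by mouse and colored by group. The 3 pericyte genes are higher where the endothelial mean is higher (r of 0.9745 for Rgs5). At right, each of the 2 contractile genes has its own lowest point in control mouse 7, and Tagln is below Acta2 in every mouse.

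Acta2 and Tagln were set beside connective tissue genes, with which neither relation passed after adjustment. A list of 7 such genes, among them Col1a1 and Lum, summed to 1006 CPM in control mouse 1 and 22.5 CPM in control mouse 7, the mice with the highest and lowest Acta2. The OIR mice summed to 134 to 442 CPM and the OIR+32-134D mice to 131 to 404 CPM, both within the control range, with Lum at 0 counts in control mouse 7. The list mean had an r of 0.7625 with Acta2 (exact permutation p = 0.0187, adjusted 0.06504) and a Spearman coefficient of 0.783 (adjusted 0.06624), and an r of 0.563 without control mouse 7 and OIR+32-134D mouse 5. For Tagln, r was 0.839 (exact permutation p = 0.01214, adjusted 0.05516) and 0.107 without those 2 mice, so that it rests on them. Acta2 also had an r of -0.7616 with the mean of the retina genes (exact permutation, adjusted p = 0.06504). With the mean of other smooth muscle genes r was 0.6583 (exact permutation, adjusted p = 0.1307). By deviations from group means, r with Acta2 was 0.8205 for connective tissue, -0.8366 for retina, and 0.8158 for other smooth muscle genes. The part of connective tissue, or of the other lists, in the Acta2 values was not tested.

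For each member, the 3 genes of the 17540 with the highest r of log2 CPM over the 9 mice were read as a description, with no p. All 9 libraries and their scaling are shared by the points. For Rgs5 they were Gja4 (0.9827), Sox18 (0.9789), and Kif26a (0.9755), and for Abcc9 Tie1 (0.9767), Adgrl4 (0.9763), and Cd34 (0.9716). Icam2 (0.9759) and Mier2 (0.9685) were among the 3 most like Kcnj8. Gja4 encodes a gap junction protein of arterial endothelium and mural cells, Sox18 an endothelial transcription factor, and Tie1 an endothelial receptor, while CD34 and ICAM2 are proteins of the endothelial surface.

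The genes most like Pdgfb were Lama4 (0.9859), Gm6297 (0.9765), and Itga1 (0.9665), of which Lama4 encodes a laminin chain of vascular basement membranes and Itga1 a collagen-binding integrin. Itga1 (0.9406) was also among the 3 most like Notch3, with Zfp874b (0.9418) and Fzd4 (0.9313), the receptor of norrin in retinal vessels. Pdgfrb was most like Pik3r6 (0.9569), Tgfb1i1 (0.9456), and Procr (0.9384), and Cspg4 was most like 9930012K11Rik (0.9492), Kctd14 (0.9285), and Serpine2 (0.8915). Acta2 was most like Ccbe1 (0.9392), Col6a3 (0.9332), and Snora31 (0.9287), of which Col6a3 encodes a chain of collagen VI. Myh11 was most like Gja5 (0.9248), the connexin of arterial endothelium, Gm43843 (0.9154), and a low-count row named Aldoa (0.8982). For Tagln they were 4933413J09Rik (0.9556), Zcwpw1 (0.9528), and 5430400D12Rik (0.9519), beside its low counts.

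Among related genes, 1 passed in any comparison. Of the 12 endothelial genes, Kdr, which encodes VEGF receptor 2, rose in OIR mice against control, by a log2 fold change of 1.10 (SE 0.17, edgeR adjusted p = 0.0407), and the list's median was 0.05. With any 1 control or OIR mouse left out, 0 genes passed as higher in this comparison, so that Kdr passed in none of these 6 fits. Of 4 other PDGF family genes, 0 passed, and the smallest p in OIR against control were those of Pdgfa, the ligand of retinal neurons (log2 fold change -0.69, edgeR adjusted p = 0.1074), and of Pdgfra, the receptor of retinal astrocytes (0.73, adjusted p = 0.1387). Of 10 other pericyte genes, 9 were tested and 0 passed, with a median of -0.04 for OIR against control and 0.73 for OIR+32-134D against control. Mcam, which encodes the adhesion molecule CD146 of endothelium and pericytes, had 1.23 (SE 0.30, edgeR adjusted p = 0.0707), and Atp13a5, a marker of brain pericytes, had -2.23 (SE 0.58, edgeR adjusted p = 0.0798), in OIR against control. These pericyte genes therefore differed in sign.

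Of 12 other smooth muscle genes, 0 passed, with a median of 0.02 for OIR against control, 0.21 for OIR+32-134D against control, and 0.22 for OIR+32-134D against OIR. Tpm1 (-0.61, edgeR adjusted p = 0.1274), which encodes a tropomyosin, and Myocd (0.72, adjusted p = 0.4853), which encodes the smooth muscle coactivator myocardin, had the smallest p in OIR against control. Of 12 Notch pathway genes, 0 passed, with medians of 0.34 for OIR against control and 0.48 for OIR+32-134D against control. The Notch target Hey2 (0.93, SE 0.21, edgeR adjusted p = 0.0623) and the receptor Notch2 (0.85, SE 0.20, edgeR adjusted p = 0.0679) were nearest to the threshold in OIR against control. Notch3 itself had 0.19 there.

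Markers of other tissues had 0 genes that passed in any comparison. In OIR against control, the genes with the smallest p and their log2 fold changes were Col3a1 (-1.50) and Col1a1 (-2.15) of connective tissue, Acta1 (-0.84) and Pvalb (-2.91) of skeletal muscle, the latter also a gene of retinal neurons, Rgr (-1.04) and Best1 (-0.87) of pigment epithelium, and Myoc (-1.05) of the anterior segment. They were Alas2 (-1.54) and Hba-a2 (-1.78) of red blood cells, Pdgfra and Gfap (1.53) of astrocytes, and Pax6 (-0.69) of the retina. Of the actin paralogs other than Acta2 they were Acta1 and Actc1 (0.16), and of the lens Crybb1 (1.71) and Cryaa (1.69). Of these lists, 9 lens genes had a median log2 fold change of 7.95 for OIR+32-134D against control, and summed to 101950 CPM in OIR+32-134D mouse 2 and 9.87 to 792 CPM in the other 8 mice. That library was also among the 2 lowest for Rgs5, Kcnj8, and Abcc9 and among the 2 highest for Acta2, and the part of the lens genes in this was not tested.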

How the data were processed

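Total RNA of the retina of 9 mice was sequenced by the authors, who deposited 1 table of raw counts per gene, with 1 column per mouse, a gene length, and a position for each of 54532 genes. The submitters' processing notes name CASAVA and HISAT. The counter, annotation, build, and strand setting are not given in the sources used here. Of the gene identifiers, 54409 are in GENCODE M21, with an identical position for 98.3% of these, and coordinates are therefore those of GRCm38.

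Differences were tested with edgeR 4.0.16 under R 4.3.3 (scaling by TMM, filterByExpr by group, quasi-likelihood test, 1 mean for each of 3 groups over all 9 mice, Benjamini-Hochberg adjustment over 17540 genes). A gene passed at an adjusted p below 0.05. CPM were scaled by TMM, and log2 CPM used a prior count of 2. Intervals are 95%. With 3 mice per group, the spread between mice limits precision, as do low counts for Tagln. Correlations used exact permutation of the 9 mice. Alternatives were DESeq2 1.42.0, limma 3.58.1 (voom with quality weights), edgeR on the 2 groups compared, upper-quartile factors, total counts alone, no filter, 10 counts in every mouse, a further limit of 1 on the absolute log2 fold change, and leaving out each mouse. The fits were tested on simulated counts. Tables and figures were made with pandas 2.3.3 and matplotlib 3.10.9 in Python 3.11.15.

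The members and lists were chosen with earlier results of these data known. Genes named are the 10 members and the 3 genes most correlated with each member. In each other list, members apart, they are those that passed in any comparison, or else the 2 with the smallest p in OIR against control. Other genes and within-mouse differences named were chosen after their values were seen. Some genes under this rule are not reported here by name.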

Additional observations from a re-analysis of the deposited data

How the results depend on the processing

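No paired analysis was possible because the label numbers name separate animals and any 2 groups share fewer than 2 of them. Over 17 alternatives per gene (16 for Tagln, which a minimum of 10 counts in every mouse removes), 474 of 507 fold changes of members kept their direction and their side of the threshold, 31 changed sign, 2 passed only in the alternative, and 0 were lost. The 2 that passed were both under limma voom for OIR+32-134D against control, Pdgfb (1.10, adjusted p = 0.0441) and Abcc9 (1.43, adjusted p = 0.0495), so the count of members higher there was 2 instead of 0. Every other count of members that passed stayed at 0, including the further limit on the fold change. Over all alternatives the adjusted p of these 2 ranged from 0.0441 to 0.4615 and from 0.0495 to 0.4610. The number of all genes that passed moved widely, for OIR against control from 0 to 917 higher and 0 to 1658 lower (76 and 89 as reported), for OIR+32-134D against control from 0 to 460 and 0 to 466 (2 and 2), and for OIR+32-134D against OIR from 0 to 19 and 0 to 60 (0 and 0).

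The median over members for OIR against control ranged from -0.12, without OIR mouse 3, to 0.41 with single mice left out. Signs that changed under limma voom were those of Cspg4 (0.20) and Myh11 (-0.41) for OIR against control and Acta2 (-0.20) for OIR+32-134D against OIR. Tagln for OIR+32-134D against control was -0.0029 with upper-quartile factors and -0.055 with total counts alone, and Pdgfrb for OIR+32-134D against OIR was -0.017 with total counts alone. With single mice left out, values that changed sign for OIR against control ranged from -0.13 to 0.50 (Pdgfb), -0.75 to 0.32 (Rgs5), -0.41 to 0.44 (Cspg4), -0.51 to 0.21 (Kcnj8), -1.68 to 0.74 (Acta2), -0.39 to 0.63 (Tagln), -1.02 to 0.98 (Myh11), and -0.12 to 0.40 (Notch3). For OIR+32-134D against control they ranged from -0.12 to 0.82 (Cspg4), -1.28 to 1.55 (Acta2), -0.51 to 0.51 (Tagln), and -0.99 to 0.44 (Myh11). For OIR+32-134D against OIR they ranged from -0.066 to 0.25 (Pdgfrb), -0.060 to 1.20 (Acta2), -0.28 to 0.067 (Tagln), and -1.29 to 0.79 (Myh11). The causes were not tested. Without OIR+32-134D mouse 2, 4 of 10 members had an unadjusted p below 0.05 in each comparison of OIR+32-134D mice, beside 14.2% of all genes against control and 13% against OIR, and 0 members passed after adjustment. With any other single mouse left out, 0 to 3 members had such a p against control and 0 to 2 against OIR. The shares of all genes were then 12.8% to 19.8% and 2.38% to 5.56%.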
